A study of Mus musculus with 28 samples.

Results

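A set of 33 genes that mark the thalamus or the layers of the neocortex was followed through RNA libraries of mouse dorsal hippocampus. The genes were picked by symbol, through their Ensembl identifiers, out of 50686 genes in the count table. They comprise 14 markers of the thalamus, 9 of neocortical layers 2 to 4 and 10 of layers 5 to 6b. The list was drawn up with their levels in these groups already known. Levels and group differences of the 33 genes are therefore descriptions, given without p-values of single genes. Calls at a p threshold are listed below as descriptions too.

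The thalamus is a set of relay nuclei that lies beneath the dorsal hippocampus and sends sensory signals to the cortex. Its projection neurons are glutamatergic, carry the vesicular glutamate transporter VGLUT2 and depend on the transcription factor TCF7L2. The neocortex lies above the dorsal hippocampus, and its layers are told apart by transcription factors and signalling genes that are each made by neurons of certain layers. Some of these genes are also made inside the hippocampus, Lamp5 by interneurons and Tbr1 by glutamatergic neurons among them.

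All mice were C57Bl6 males. Basal libraries (n = 4) came from mice with neither conditioning nor treatment. All other mice went through auditory fear conditioning, a task that couples a tone to a shock, and were given Vehicle (n = 4) or a compound that the series title describes as modulating the glucocorticoid receptor. These were Cort (the usual abbreviation of corticosterone, n = 5), RU486 (mifepristone, a receptor antagonist, n = 5), and C108 and C118 (n = 5 each), which are known here by code names alone. No group differs from Vehicle in conditioning except Basal, which lacks both conditioning and vehicle. The sources used here do not give ages, doses or times. A library is named by its group and the sample number in its title.

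The 28 libraries held 16.2 to 20.3 M gene counts each (M, 10 to the power of 6). Levels are in CPM, counts scaled to that same power of 10 with trimmed-mean (TMM) scaling of library sizes. The labels give dorsal hippocampus, and markers of its fields were present in every library, with 9 CA1 genes summing to 458.8 to 1224 CPM and 10 dentate gyrus genes to 502.1 to 1020 CPM. The lowest of these sums belonged to Vehicle libraries. Of 8 hypothalamic markers, 2 passed the count filter, and these summed to at most 1.779 CPM. The labels do not say whether each library came from a separate mouse, so that SDs and tests measure the spread between these libraries.

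Of the 33 genes, 32 passed the filter on low counts. A single library, Vehicle 16, held the highest level of 20 of these 32, among them all 13 tested thalamus markers, 6 markers of layers 2 to 4 and 1 of layers 5 to 6b. That library held the highest level of 4.8% of all 16735 tested genes. Vehicle 29 held the highest level of another 8, of which 6 mark layers 5 to 6b and 2 mark layers 2 to 4, beside 8.65% of all tested genes. Basal 1, Basal 9, C108 39 and C118 33 each held the highest level of 1 gene, namely Tbr1, Tle4, Scnn1a and Hs3st4. In bulk tissue, fewer cells of a type and less RNA per cell cannot be told apart.

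Levels over 2 times a gene's own median over the 28 libraries were also concentrated in a few libraries. Vehicle 16 had 17 such genes (12 thalamus and 5 of layers 2 to 4), beside 2.73% of all tested genes. Vehicle 3 had 8, all of them thalamus markers, beside 1.34% of all genes. Vehicle 29 had 8, of which 4 mark layers 2 to 4 and 4 mark layers 5 to 6b, and none marks the thalamus, beside 1.94% of all genes. Cort 4 and Cort 11 had 7 each and Cort 30 had 5, all thalamus markers, beside 1.9%, 0.717% and 1.11% of all genes. RU486 25 had 3 and RU486 32 had 2, beside 1.2% and 0.281% of all genes. Basal 9 had 3, Basal 27 had 2, and Basal 1 and Basal 14 had 1 each, beside 0.687%, 1.07%, 2.25% and 1.8%. Vehicle 23, Cort 17, Cort 36, RU486 6, 12 and 19 and all C108 and C118 libraries had 0. In these the share of all genes ran from 0.12% (C108 34) to 1.57% (RU486 6). A count of 0 of 32 is near such shares and is no trait of the markers.

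**Figure D1:**
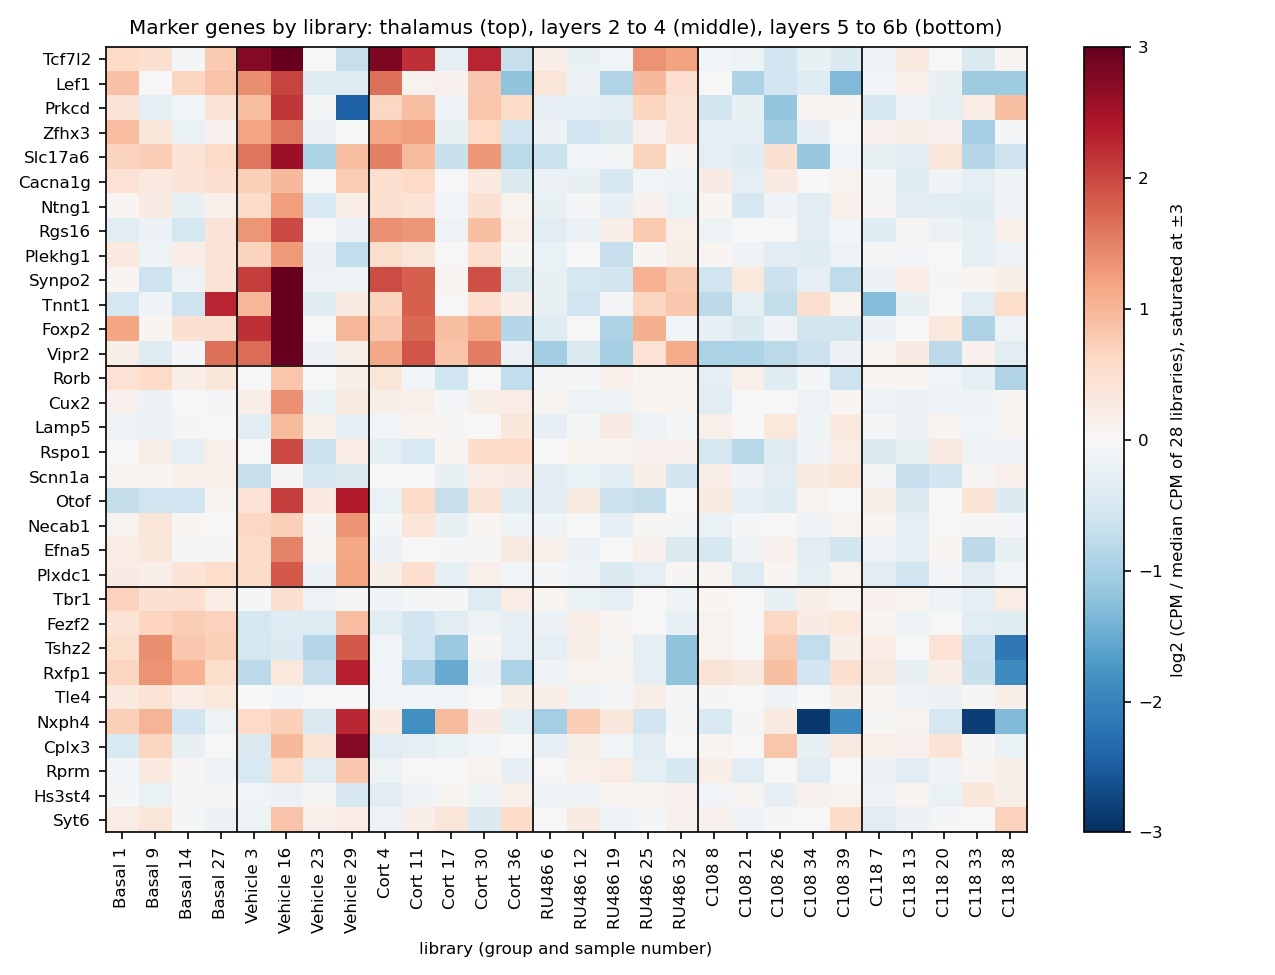
Level of each of the 32 tested genes in each of the 28 libraries, as log2 CPM minus the gene's median over all libraries (colour), with genes in rows grouped by thalamus, layers 2 to 4 and layers 5 to 6b, and libraries in columns grouped by treatment. Vehicle 16 is high for thalamus and upper-layer genes, Vehicle 3, Cort 4, Cort 11 and Cort 30 for thalamus genes, and Vehicle 29 for neocortical genes.

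Tcf7l2 (chromosome 19, 55741820 to 55933654, plus strand, GRCm38) encodes a transcription factor of Wnt signalling that thalamic neurons need for their identity. In Vehicle, its level was 24.7 CPM in library 3, 37.5 in 16, 3.68 in 23 and 2.25 in 29. In Cort it was 25.1 in library 4, 16.6 in 11, 2.94 in 17, 17.6 in 30 and 2.25 in 36. Both groups thus fell into high and low libraries with no value between 3.68 and 16.6 CPM. Levels in Basal were 5.53, 5.04, 3.55 and 6.22 CPM, and in RU486 they were 4.18, 3.13, 3.4, 9.31 and 8.33 CPM. The C108 values were 3.45, 3.28, 2.42, 3.1 and 2.74 CPM and the C118 values 3.39, 4.46, 3.58, 2.7 and 3.87 CPM, with no high library in either group. Vehicle averaged 17 ± 17.1 CPM (SD, n = 4), an SD as large as the mean, and its range covered those of Basal, RU486, C108 and C118.

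Synpo2 (chromosome 3, 123076519 to 123236149, minus strand), which encodes an actin-binding protein, singled out the same libraries. Its Vehicle levels were 25.9, 52.4, 5.58 and 5.78 CPM in libraries 3, 16, 23 and 29. The Cort levels were 23.9, 21.4, 6.61, 23.7 and 4.55 CPM in libraries 4, 11, 17, 30 and 36. The 2 high Vehicle libraries and the 3 high Cort libraries were those that were high for Tcf7l2. Basal ranged from 4.05 to 8.3 CPM, RU486 from 4.2 to 12.8, C108 from 3.66 to 7.66 and C118 from 5.47 to 7.24. RU486 25 and RU486 32 were the highest RU486 libraries for both genes.

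The sequences before the starts of these genes, which were high in the same libraries, are shown with matches to short motifs, and that of Cplx3, a gene high in Vehicle 29, is shown for contrast. Each is the 250 bases before a RefSeq start (GRCm38.p6), 5′ to 3′ on the strand of the gene, with none of its bases in a GENCODE exon. Capitals mark a match on either strand to TATAAA or AGGTCA. The windows are chr19:55741560-55741809 (plus) and chr19:55895071-55895320 (plus) for the starts of Tcf7l2, chr3:123236150-123236399 (minus) for Synpo2 and chr9:57606282-57606531 (minus) for Cplx3.
Tcf7l2, first start: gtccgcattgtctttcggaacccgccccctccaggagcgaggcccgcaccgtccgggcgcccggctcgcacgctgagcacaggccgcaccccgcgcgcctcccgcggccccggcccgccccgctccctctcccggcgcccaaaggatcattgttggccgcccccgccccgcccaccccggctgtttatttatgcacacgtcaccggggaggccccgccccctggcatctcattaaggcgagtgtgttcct
Tcf7l2, second start: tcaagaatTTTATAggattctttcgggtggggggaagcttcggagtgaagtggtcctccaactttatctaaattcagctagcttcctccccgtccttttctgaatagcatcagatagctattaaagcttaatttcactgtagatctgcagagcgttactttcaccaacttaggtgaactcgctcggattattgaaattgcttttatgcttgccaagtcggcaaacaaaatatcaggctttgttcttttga
Synpo2: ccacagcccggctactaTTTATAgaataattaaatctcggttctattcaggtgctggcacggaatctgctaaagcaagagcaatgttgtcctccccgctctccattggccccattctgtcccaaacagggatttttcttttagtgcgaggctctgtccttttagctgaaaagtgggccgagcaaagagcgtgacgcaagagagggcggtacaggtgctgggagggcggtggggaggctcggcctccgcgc
Cplx3: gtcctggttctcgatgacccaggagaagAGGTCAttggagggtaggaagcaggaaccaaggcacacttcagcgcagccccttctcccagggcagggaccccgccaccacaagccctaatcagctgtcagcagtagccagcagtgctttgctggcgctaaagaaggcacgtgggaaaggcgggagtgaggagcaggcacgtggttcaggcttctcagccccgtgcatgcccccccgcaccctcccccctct

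In the second Tcf7l2 window and in that of Synpo2, TATAAA was read on the opposite strand, from 242 and 233 bases before the start. The first Tcf7l2 window held no match and had a GC content of 72.8%, against 40.8% in the second. RefSeq windows were at hand for 25 of the 33 genes, 37 windows in all. TATAAA was found in 16.2% of these windows (Cux2, Lef1, Prkcd, Synpo2, Tcf7l2 and Tnnt1) and in 12.4% of all 32851 windows. In Tnnt1 it began 30 bases before the RefSeq start, in the window chr7:4515976-4516225 (minus). That window lies inside the gene as GENCODE gives it (4504570 to 4516382), with 29 of its bases in GENCODE exons. AGGTCA, the core recognition motif of many nuclear receptors, was found in 8.11% of the windows (Cplx3 and Syt6) and in 14% of all. The Syt6 windows that hold it overlap, and the same stretch is counted in each. The TCF and LEF motif CTTTGAA was found before a RefSeq start of Tbr1 alone (4.46% of all windows), and CTTTGAT before none of the 25 genes (3.21% of all windows). All 250 bases of that Tbr1 window (chr2:61804203-61804452, plus) lie in GENCODE exons, inside the gene, which starts at 61802930. CTTTGAA and CTTTGAT differ in the last letter, so that no stretch matches both, and both strands were searched. A match describes these letters only.

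Other transcription factors of the thalamus list followed, at lower levels. Lef1, like Tcf7l2 a transcription factor of Wnt signalling, stood at 4.65, 7.28, 1.39 and 1.38 CPM in Vehicle 3, 16, 23 and 29. It stood at 5.57 CPM in Cort 4, but at 1.9 CPM in Cort 11. Zfhx3, a zinc finger homeobox factor, stood at 5.37, 7.18, 2.06 and 2.35 CPM in Vehicle, and at 5.27, 5.61, 2.01, 3.56 and 1.59 CPM in Cort. A gene on the opposite strand, Gm39244, overlaps Zfhx3, and no source used here gives the strand setting of the counting. Foxp2, a forkhead factor of thalamus and deep cortical layers, reached 10.4 CPM in Vehicle 16 and 5.06 in Vehicle 3, against 1.12 in Vehicle 23 and 2.2 in Vehicle 29. C108 held Foxp2 between 0.761 and 1.03 CPM, below all 4 Vehicle libraries.

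Gbx2, a homeobox gene of thalamic neurons, is the gene that did not pass the filter. It had 13 and 16 counts in Vehicle 3 and 16, 0 in Vehicle 23 and 29, and 12 in Cort 30. Only these 3 of the 28 libraries reached 10 counts. A count of 0 says little at this depth, and no fold is given for this gene.

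Among genes of synaptic transmission and excitability, Slc17a6, which encodes VGLUT2 (chromosome 7, 51622006 to 51671119, plus strand), had 44.8, 87.5, 7.7 and 27.4 CPM in Vehicle 3, 16, 23 and 29. Vehicle 29, low for Tcf7l2, was thus above the median over libraries, 14.7 CPM, for Slc17a6. Basal libraries lay between 19.7 and 24.5 CPM, above all 5 C118 libraries (8.19 to 18.8 CPM). Cacna1g, a T-type calcium channel subunit, varied less, with 54.2, 64.7, 33.4 and 55.8 CPM in Vehicle and 23.7 to 31.5 CPM in RU486. Ntng1, the axon guidance protein netrin-G1, spanned 25.7 to 84 CPM in Vehicle and 24.7 to 38.8 CPM in C108.

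Prkcd, a protein kinase C found in sensory relay nuclei, reached 255 CPM in Vehicle 16, with 107.6 in Vehicle 3 and 55.5 in Vehicle 23. In Vehicle 29 it was 10.8 CPM, the lowest of all 28 libraries. C118 38, where Tcf7l2 stood at 3.87 CPM, held 109 CPM of Prkcd. Rgs16, a regulator of G protein signalling, was 20.7 and 32.9 CPM in Vehicle 3 and 16 and 8.37 and 7.32 in the others. Its Cort levels were 21.5, 20.8 and 15.5 CPM in libraries 4, 11 and 30, and 7.54 and 9.31 in 17 and 36. Plekhg1 ranged from 25.9 to 104 CPM in Vehicle and from 33.4 to 45.6 CPM in C108.

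Tnnt1 and Vipr2 were highest in Vehicle 16, far above the next library. Tnnt1, a troponin that is also a marker of thalamic relay neurons, was 20.3 CPM in Vehicle 16 and 1.86 in Vehicle 3. The next highest library was Basal 27 with 4.58 CPM, and Cort 11 had 3.23. Vipr2, a receptor of vasoactive intestinal peptide, was 11.3 CPM in Vehicle 16 and 2.01 in Vehicle 3, with 2.33 in Cort 11 and 1.98 in Basal 27. Cort 4 and Cort 30, high for Tcf7l2, had 1.48 and 1.33 CPM of Tnnt1.

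**Figure D2:**
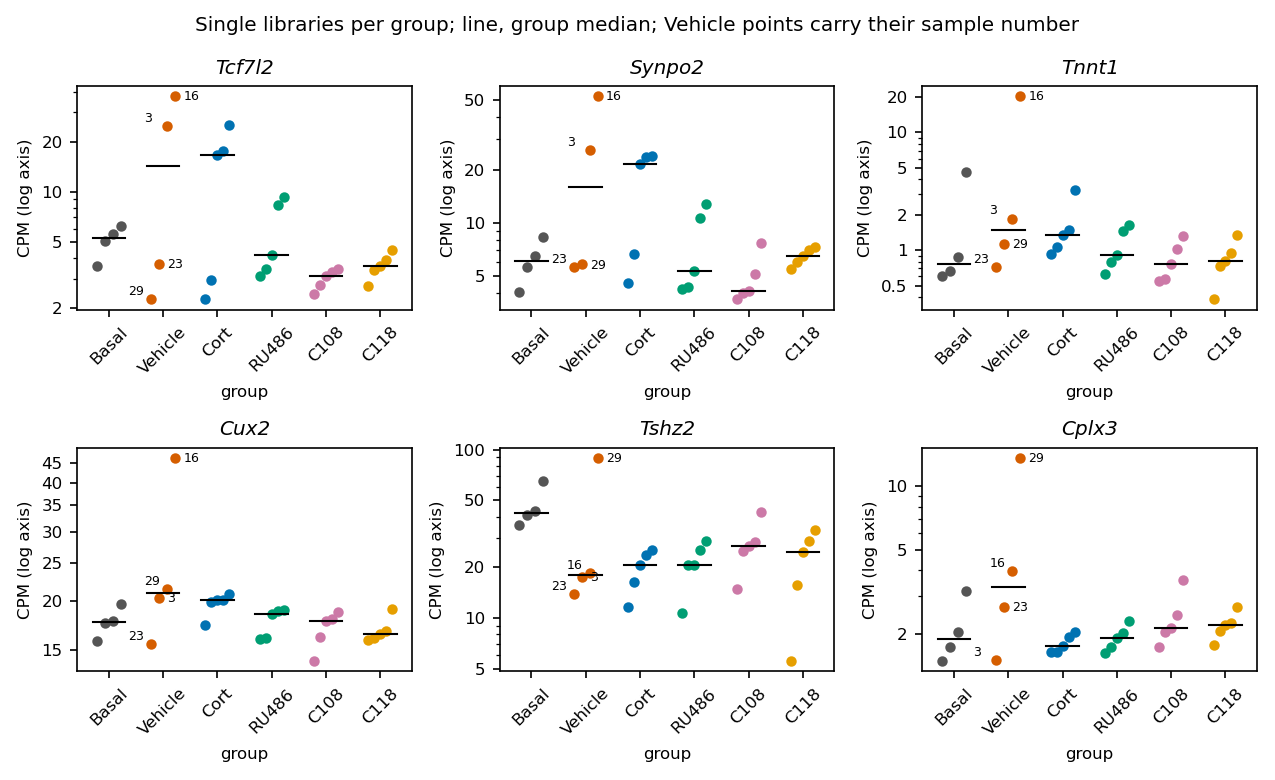
CPM on a log axis of 6 genes in single libraries (points) by group, with the group median as a line and the sample numbers of the Vehicle libraries beside their points. Vehicle 16 is highest for Tcf7l2, Synpo2, Tnnt1 and Cux2, and Vehicle 29 for Tshz2 and Cplx3.

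A score for each set, the mean log2 CPM after subtracting each gene's median over 28 libraries, gathers these values. The thalamus score (13 genes) was 1.35, 2.42, -0.21 and -0.10 in Vehicle 3, 16, 23 and 29, a mean of 0.87 ± 1.25 (SD, n = 4). In Cort it was 1.14, 1.14, 0.03, 0.98 and -0.29 in libraries 4, 11, 17, 30 and 36, a mean of 0.60 ± 0.68 (SD, n = 5). Basal averaged 0.27 ± 0.30 (SD, n = 4), RU486 0.02 ± 0.43, C108 -0.29 ± 0.06 and C118 -0.15 ± 0.15 (SD, n = 5 each). The 5 C108 scores lay between -0.39 and -0.22, below all 4 Basal scores (0.02 to 0.66). In the order of the means (Vehicle, Cort, Basal, RU486, C118, C108), every pair of neighbours overlapped in range.

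The spread within groups differed by group more than it did for other genes. The median SD of log2 CPM over the thalamus genes was 1.35 in Vehicle and 0.71 in Cort, against 0.38 in Basal, 0.47 in RU486, 0.27 in C108 and 0.35 in C118. Over all tested genes it was between 0.15 and 0.19 in every group. For layers 2 to 4 it was 0.61 in Vehicle and at most 0.24 elsewhere, and for layers 5 to 6b it was 0.65 in Vehicle and at most 0.25 elsewhere.

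Among markers of layers 2 to 4, the transcription factor Cux2 (chromosome 5, 121856366 to 122050102, minus strand) had 20.4, 46.3, 15.5 and 21.4 CPM in Vehicle 3, 16, 23 and 29. The other 24 libraries lay between 14.1 and 20.8 CPM. Rorb, a nuclear receptor of layer 4, was 23.8 CPM in Vehicle 16, 13.4, 13.3 and 15 in the other Vehicle libraries, and 15.3 to 20.3 CPM in Basal. Rspo1, a secreted activator of Wnt signalling, was 3.44 CPM in Vehicle 16 and at most 1.33 CPM in the other 27 libraries. Lamp5, a membrane protein of upper layers and interneurons, was 84.9 CPM in Vehicle 16 and at most 56 CPM elsewhere. Vehicle 16 was thus the single high library for Cux2, Rspo1 and Lamp5.

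For the other upper-layer genes Vehicle 29 was high as well. Otof, the calcium sensor otoferlin (chromosome 5, 30367062 to 30461932, minus strand), had 1.34, 4.21, 1.23 and 5.22 CPM in Vehicle 3, 16, 23 and 29. All 4 lay above the Basal values of 0.614, 0.658, 0.66 and 1.06 CPM. Plxdc1, a membrane protein with a plexin domain, had 7.49, 18.4, 4.57 and 11.6 CPM in Vehicle, and Efna5, an ephrin that guides axons, had 4.39, 8.41, 3.18 and 6.7 CPM. Necab1, a neuronal calcium-binding protein, had 72.9, 78.2, 49 and 122 CPM in Vehicle, beside 38.8 to 61.3 CPM in the other groups. Gm11633 overlaps Plxdc1 and Gm11837 overlaps Necab1 on the opposite strand. Scnn1a, a sodium channel subunit of layer 4, went against its set, with 8.16 CPM in Vehicle 16 near its median of 7.9, and 4.91, 5.63 and 5.94 CPM in the other Vehicle libraries.

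In layers 5 to 6b, Cplx3, a complexin of subplate neurons (chromosome 9, 57599992 to 57606281, minus strand), had 1.5, 3.95, 2.68 and 13.7 CPM in Vehicle 3, 16, 23 and 29. No other group exceeded 3.61 CPM (C108 26). Nxph4, a neurexophilin of layer 6b, had 1.79 CPM in Vehicle 29 and at most 0.767 CPM elsewhere, and 7 of 28 libraries reached 10 counts. Rprm, a cell cycle regulator that marks deep layers, had 10.1, 20.5, 11.2 and 24.4 CPM in Vehicle, with both Vehicle 16 and 29 high.

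Rxfp1, a receptor of relaxin, Tshz2, a zinc finger factor, and Fezf2, the factor that specifies layer 5 neurons projecting below the cortex, were high in Vehicle 29 and also in Basal. Tshz2 (chromosome 2, 169633013 to 170071816, plus strand) had 17.6, 18.6, 13.8 and 89.6 CPM in Vehicle and 35.7, 65, 43.5 and 41 CPM in Basal. Fezf2 (chromosome 14, 12342094 to 12348189, minus strand) had 10.3, 11.2, 11.3 and 28 CPM in Vehicle and 19.6, 23.3, 24.8 and 23.7 CPM in Basal. Rxfp1 had 2.48, 5.28, 2.62 and 21.5 CPM in Vehicle and 6.71, 10.8, 8.78 and 6.13 CPM in Basal. For each of these genes Vehicle 3, 16 and 23 lay below all Basal libraries and Vehicle 29 lay above them. C118 38 had the lowest Tshz2 (5.57 CPM) and Rxfp1 (1.15 CPM) of all libraries.

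Tbr1 and Tle4, a T-box factor of layer 6 and a corepressor of deep layers, were highest in Basal. Tbr1 (chromosome 2, 61802930 to 61814114, plus strand) had 59.8, 50.6, 52.2 and 43 CPM in Basal and 35.3, 51.2, 33.3 and 35.7 CPM in Vehicle. The 4 ligand groups held Tbr1 between 28.2 and 42.9 CPM, below all Basal libraries. Tle4 had 64.2, 68.7, 61 and 64.3 CPM in Basal and 46.3 to 59.9 CPM in the other 24 libraries, with no overlap. Neither followed Vehicle 29, where Tbr1 stood at 35.7 and Tle4 at 51.2 CPM. Hs3st4, a heparan sulfate sulfotransferase, was lowest in Vehicle 29 at 103 CPM, and Syt6, a synaptotagmin of corticothalamic neurons, was highest in Vehicle 16 at 9.44 CPM. Gm27040 overlaps Hs3st4 and Atg4a-ps overlaps Syt6 on the opposite strand.

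The score of layers 2 to 4 (9 genes) was 0.14, 1.22, -0.10 and 0.65 in Vehicle 3, 16, 23 and 29, and at most 0.17 in the other groups. The score of layers 5 to 6b (10 genes) was -0.24, 0.26, -0.21 and 1.02 in Vehicle, and averaged 0.34 ± 0.18 (SD, n = 4) in Basal, where Basal 9 had 0.61. Of the libraries with a high thalamus score, Vehicle 16 alone had an upper-layer score above 0.17. Vehicle 29 had the highest deep-layer score together with a thalamus score of -0.10.

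**Figure D3:**
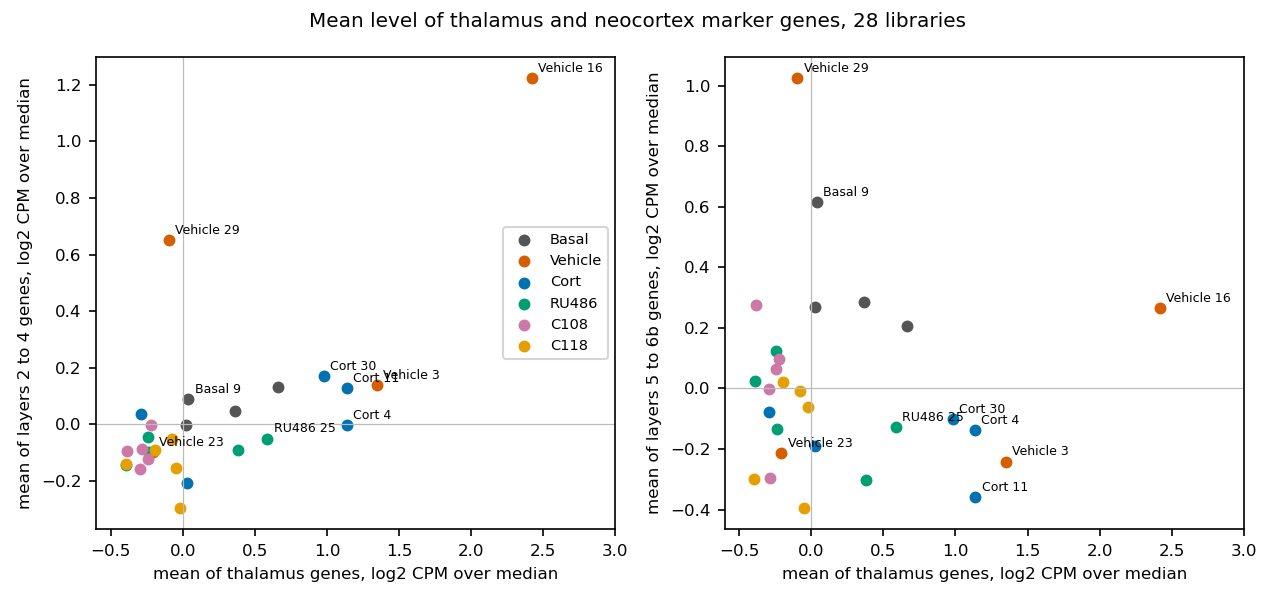
Scores of single libraries (points, coloured by group), with the thalamus score on the x axis and the score of layers 2 to 4 or of layers 5 to 6b on the y axis, all as mean log2 CPM relative to each gene's median. Vehicle 16 is high on the thalamus and upper-layer axes, Vehicle 29 on the neocortical axes, and Vehicle 3, Cort 4, Cort 11 and Cort 30 on the thalamus axis.

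Pearson correlation after centring on group means shows how far single genes followed their set over the 28 libraries. All genes of a library share its tissue sample and depth. With the mean of the other thalamus genes, r ranged from 0.69 (Cacna1g and Prkcd) to 0.94 (Synpo2), with 0.93 for Tcf7l2 and 0.91 for Rgs16. With the mean of the other neocortex genes, r was 0.76 for Cplx3, 0.73 for Rprm, 0.72 for Rxfp1 and 0.69 for Efna5. It was near 0 for Tbr1 (0.11) and Tle4 (-0.12) and negative for Hs3st4 (-0.64). These values describe the 28 libraries and were not tested.

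Other genes with the same pattern were ranked by that correlation. Closest to the thalamus genes were Shox2, a homeobox factor (r = 0.95), Amotl1, of the angiomotin family (0.94), Patj, a tight junction scaffold (0.94), Hcn4, a pacemaker channel (0.93), and Rab37, a small GTPase (0.93). They were followed by Ramp3, Rims3, Slitrk6, Plcb4 and Nexn, with r down to 0.89, and all 10 were highest in Vehicle 16. Without that library their r lay between 0.81 and 0.96. Shox2 was 8.21, 22.6, 0 and 0.102 CPM in Vehicle 3, 16, 23 and 29, and 9.15, 6.4, 0.568, 4.15 and 0 CPM in Cort. Closest to the neocortex genes were Garnl3 (0.92), Lrrtm3, a synaptic adhesion protein (0.90), Fam81a (0.89), Adcyap1, the neuropeptide PACAP (0.88), and Sowahb (0.88). They were followed by Cobl, Osbpl1a, Resp18, Tox and Cbln2, down to 0.84.

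A list of 12 further thalamus genes gave a score of 1.41, 2.08, -0.29 and 0.06 in Vehicle 3, 16, 23 and 29 and of 1.40, 1.09, 0.39, 1.12 and -0.42 in Cort. It holds Shox2, Amotl1, Ramp3, Slitrk6 and Plcb4, which were also ranked above for likeness, so the list and the ranking share genes. In Vehicle against Basal, 10 of its log2 fold changes were positive and 2 negative, Lhx2 at -0.12 and Lhx9 at -0.12. Rora, a nuclear receptor of the list, had 75.1, 140, 48.5 and 66 CPM in Vehicle and 38.5 to 45 CPM in Basal, with no overlap. Ramp3, a receptor accessory protein, had 21.5, 39.5, 5.75 and 2.25 CPM in Vehicle. A list of 13 further neocortex genes gave 0.30 in Vehicle 16 and 0.38 in Vehicle 29. Its layer 6b gene Ccn2, a secreted matrix protein, had 2.38, 4.82, 1.45 and 12.9 CPM in Vehicle.

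Markers of other regions and cells also stood apart in these libraries. In Vehicle 16 the score of CA1 was -0.90, against values between -0.26 and 0.34 in all other libraries. In Vehicle 29 the scores were -1.20 for CA2, -0.80 for the dentate gyrus, -0.48 for CA3 and 0.53 for the subiculum. The CA2 score of the other libraries was at least -0.42, and that of the dentate gyrus at least -0.28. In Vehicle 3, 16 and 23 the dentate gyrus score was -0.08, -0.10 and -0.09, against -0.02 to 0.17 in Basal. The median log2 fold change of its 10 genes in Vehicle against Basal was -0.36. By edgeR, 4 of them (C1ql2, Trpc6, Tdo2 and Plk5) were called lower in Vehicle, beside 2.47% of all tested genes. The CA1 and CA3 lists had 1 gene each called lower, Man1a and Cdh24, and the CA2 and subiculum lists had 0. The striatum score was 0.98 in Vehicle 16. In Vehicle the summed levels ran from 458.8 to 1027 CPM for CA1 (9 genes), 190.8 to 336.2 for CA2 (8 genes), 252.5 to 406.2 for CA3 (8 genes) and 502.1 to 815.3 for the dentate gyrus (10 genes), with no gene of these lists at 0 in any library.

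The choroid plexus list (10 genes) varied most. Its summed level spanned 44.56 to 971.2 CPM over the Vehicle libraries and 32.82 to 289 CPM over Basal. Cort libraries spanned 43.49 to 1713 CPM, RU486 libraries 75.47 to 4424 CPM, C108 libraries 40.94 to 283.9 CPM and C118 libraries 50.96 to 505.1 CPM, and 3 of the genes were at 0 in some library. Its score was 1.79 in Vehicle 3, 2.80 in Vehicle 16, 3.28 in Cort 4 and 2.28 in Cort 30. Cort 11, with a thalamus score of 1.14, was among the low libraries for the choroid plexus, and the highest choroid plexus score was 4.84 in RU486 6, where the thalamus score was -0.24. The part of these other markers in the levels of the 33 genes was not tested.

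**Figure D4:**
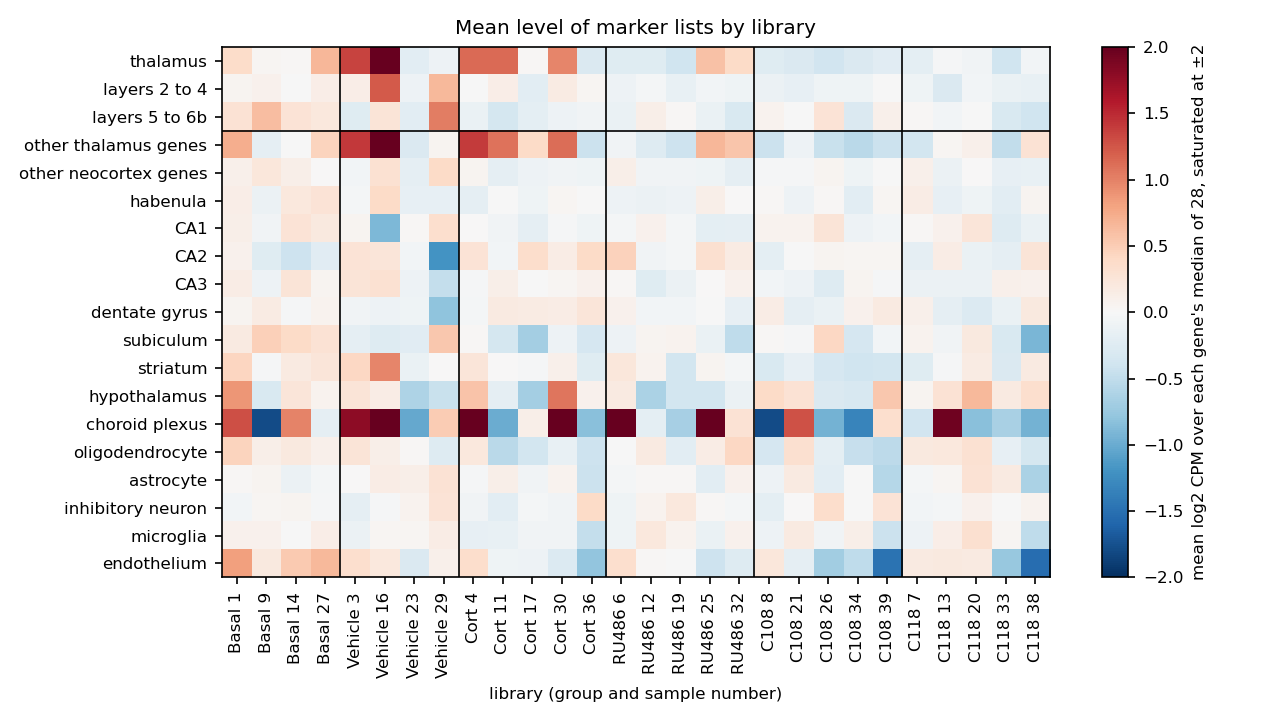
Score of each marker list (rows) in each of the 28 libraries (columns, by group), as mean log2 CPM relative to each gene's median (colour). Vehicle 16 has a high thalamus score of 2.42 and a CA1 score of -0.90, and Vehicle 29 a layer 5 to 6b score of 1.02 and a dentate gyrus score of -0.80.

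Vehicle was set against Basal to ask what conditioning with vehicle handling changed, which the design does not separate. In a quasi-likelihood fit of edgeR to all 28 libraries, at an adjusted p of 0.05 over all genes, 5 of the 32 tested genes were called, beside 4.11% of all tested genes. By direction, 4 were higher (1.64% of all genes) and 1 was lower (2.47% of all genes), and 18 had an unadjusted p under 0.05 (18.1% of all genes). Since these groups were in view when the genes were chosen, nothing is read from these shares. Called higher in Vehicle were Otof, by 1.99 ± 0.37 (SE, log2), Cplx3, by 1.38 ± 0.40, Efna5, by 0.78 ± 0.22, and Necab1, by 0.63 ± 0.16. Tle4 was called lower, at -0.33 ± 0.09. Otof, Scnn1a and Tle4 had groups without overlap (10.2% of all tested genes). All 13 thalamus genes that passed the filter had a positive log2 fold change, with a median of 0.91 and 0 called, while the median over all genes was 0.00. The median was 0.63 for layers 2 to 4 and -0.07 for layers 5 to 6b.

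Leaving out Vehicle libraries changed which genes were called. Vehicle 3 and 16 were the Vehicle libraries with the highest thalamus scores, which was known when they were picked, so the choice fixes the direction in which the thalamus median moves without them. Without this pair the calls were Otof, Necab1, Tbr1 and Cplx3, and the thalamus median turned to -0.44. Without Vehicle 16 and 29 the calls were Tbr1 and Fezf2, both lower in Vehicle, and the median of layers 2 to 4 was 0.00. The number called among all genes in either fit is not reported here, so nothing is read from these calls. Without Vehicle 23, 12 of the 33 genes, all of which then passed the filter, were called, beside 635 of 16948 genes tested in that fit.

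The 4 ligand comparisons share the Vehicle libraries, so their values are given side by side. C108 against Vehicle called 6 of the 32 genes, all lower in C108, beside 0.215% of all tested genes (0.161% lower and 0.0538% higher). Nothing is read from that share either, for the same reason. The 6 genes were Vipr2, at -3.18 ± 0.68 (SE, log2), Foxp2, at -2.44 ± 0.47, Otof, at -1.62 ± 0.34, Efna5, at -1.17 ± 0.21, Plxdc1, at -1.11 ± 0.23, and Necab1, at -0.80 ± 0.15. Foxp2 and Otof had groups without overlap in C108 (3.13% of all tested genes), Otof and Cacna1g in RU486 (1.82%), Cacna1g and Efna5 in C118 (1.35%) and none of the 32 in Cort (2.95%). No gene was called for Cort (0.00598% of all genes), RU486 (0%) or C118 (0%) by edgeR. At an unadjusted p under 0.05, 13 of the 32 genes passed for Cort, 19 for RU486, 23 for C108 and 22 for C118, beside 11.6%, 8.16%, 17.4% and 8.01% of all genes. DESeq2 called 5 of the 32 for Cort, 8 for RU486, 13 for C108 and 8 for C118, out of 85, 44, 294 and 54 called among all 16735 genes.

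All 13 thalamus genes had a negative log2 fold change in each of the ligand groups. Their median was -0.42 in Cort, -0.93 in RU486, -1.62 in C108 and -1.42 in C118, while the median over all genes was at most 0.01 from 0. For layers 2 to 4 the medians were -0.59, -0.68, -0.80 and -0.80 in the same order, and for layers 5 to 6b -0.33, -0.29, -0.26 and -0.28. Tcf7l2 differed from Vehicle by -0.40 in Cort, -1.58 in RU486, -2.51 in C108 and -2.24 in C118 (log2), and was called in none of them.

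These values moved with single Vehicle libraries. Without Vehicle 16, 0 members were called for C108, and the thalamus median in Cort turned to 0.27. Without Vehicle 3 and 16 that median was 0.79 in Cort, 0.23 in RU486, -0.21 in C108 and -0.03 in C118, and 0 members were called for C108. This pair was picked with its high thalamus scores known, which fixes the direction in which the median moves. Without Vehicle 29, 3 members were called for C108, namely Foxp2 and Vipr2, which were lower, and Fezf2, which was higher. Without Vehicle 23, which was low for all 3 sets, 5 members were called for Cort, 12 for RU486, 20 for C108 and 15 for C118, out of 170, 207, 656 and 214 among all 16948 genes tested. Leaving out C108 8, 34 or 39 also gave 0 calls of members for C108. Over the fits that each left out 1 Vehicle or C108 library, calls for C108 among all genes ran from 0 to 656. Nothing is therefore read from these member counts.

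Sample numbers run through the groups in 1 repeated order, and the last run holds Cort 36, C118 38 and C108 39. These 3 libraries had endothelium scores of -0.79, -1.52 and -1.48, microglia scores of -0.48, -0.51 and -0.43 and astrocyte scores of -0.43, -0.64 and -0.58. The labels do not say what a number stands for. Without these 3 libraries, 0 genes were called for C108, members or not. With the 6 runs as a block, the members called were Otof and Necab1 for Cort and Cacna1g, Otof, Necab1 and Efna5 for RU486, all lower than in Vehicle, out of 47 and 45 among all 16735 genes.

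**Figure D5:**
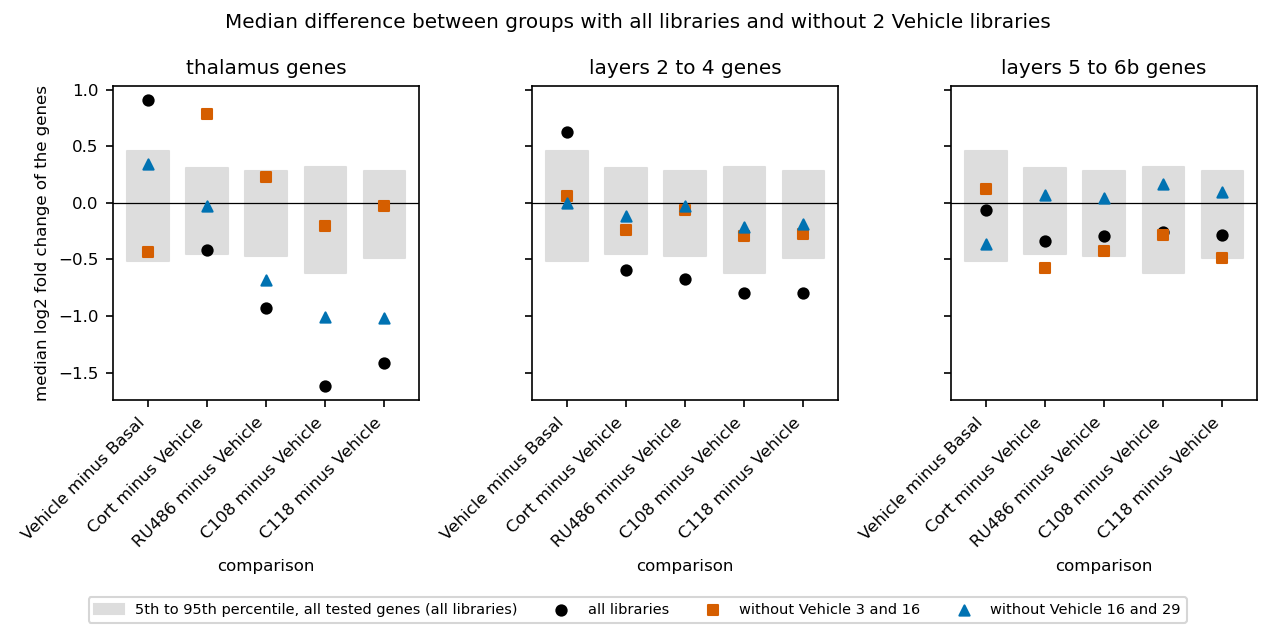
Median log2 fold change of each set (panels) in 5 comparisons with all libraries (black circles), without Vehicle 3 and 16 (orange squares) and without Vehicle 16 and 29 (blue triangles), over the 5th to 95th percentile of all tested genes with all libraries (grey). The thalamus median in Cort moves from -0.42 to 0.79 without Vehicle 3 and 16, a direction fixed by the choice of this pair.

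A joint test among Basal, Cort, RU486, C108 and C118 leaves the Vehicle mean out. It called 2 of the 32 genes, or 6.25%, beside 4.07% of all tested genes. Levels in these groups were in view too, and nothing is read from this share. They were Tbr1, with 51.4 ± 6.91 CPM (SD, n = 4) in Basal and 34.6 to 37.7 CPM in the ligand group means, and Fezf2, with 22.9 ± 2.25 CPM in Basal and 11.9 ± 1.24 CPM in Cort (SD, n = 5). Fezf2 was 17.9 ± 3.13 CPM in C108, 14.6 ± 1.89 in RU486 and 13.4 ± 1.77 in C118 (SD, n = 5 each). No thalamus gene was called, and 4 of 13 had an unadjusted p under 0.05, beside 16.2% of all genes. With the Vehicle libraries out of the fit, so that they add nothing to the estimated spread, 8 members were called, namely Tcf7l2, Cacna1g, Rgs16, Synpo2, Vipr2, Tbr1, Fezf2 and Rxfp1, out of 835 of 16615 genes tested. Leaving out Basal 14 from the fit of the remaining 27 libraries gave 0 calls of members. Over all such fits with 1 library left out, the joint test called 261 to 807 genes among all tested.

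The further thalamus and neocortex lists were also drawn up with results of these data known, so their values are descriptions too. In edgeR, Rora was higher in Vehicle than in Basal, by 0.95 ± 0.24 (SE, log2), and lower in C108 than in Vehicle, at -1.12 ± 0.22. It was the 1 gene called of the 12 further thalamus genes in each comparison, beside 4.11% and 0.215% of all tested genes. Among the further neocortex genes, Rasl10a, a Ras-like protein, was called lower in Vehicle than in Basal, at -0.75 ± 0.14, and Ccn2 lower in C108 than in Vehicle, at -1.91 ± 0.42. No listed gene of either kind was called for Cort, RU486 or C118.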

How the data were processed

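Messenger RNA of dissected hippocampi was made into stranded libraries and read from both ends, per the labels' protocols. Raw read counts for Ensembl genes were deposited by the authors, who used HTSeq 0.6.1 on build mm10, per the submitters' processing notes, which also name FastQC and MultiQC. The aligner, annotation release and strand setting were not given in the sources used here. Rows that name no gene (12.6 to 19.7% of reads) were left out, and 0 columns lacked a sample.

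Genes were filtered with filterByExpr (minimum count 10, minimum total 15), which left 16735, and TMM factors ran from 0.963 to 1.04. A single edgeR 4.0.16 quasi-likelihood fit (robust, 22 residual degrees of freedom, R 4.3.3) gave 5 comparisons and 1 joint test, two-sided, with Benjamini-Hochberg adjustment over all tested genes. SE is the fold change over the square root of F. Scores used log2 CPM with a prior count of 2. DESeq2 1.42.0, other scaling, no filter, fewer groups, runs of sample numbers as a block and left-out libraries were alternatives. The scripts were tested on simulated data. Within groups no library was a copy of another (lowest chi-square per degree of freedom 5.94). Positions come from the GENCODE M21 annotation and promoter windows from RefSeq.

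All 33 members are named, with the 10 other genes most like each set (mean of at least 1 CPM) and the further thalamus and neocortex lists, of which some results are not reported here. Members and lists were chosen with earlier results of these data known.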

Additional observations from a re-analysis of the deposited data

Results flagged for a closer look

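The 216 sets of values looked at were each 1 gene, or the score of 1 marker set, in 1 group. In 18 of them (8.33%), all of single genes, a single library lay far from the others of its group. Chance flags about 1 in 20 for independent, normally distributed values. Levels here were not logged and many genes were high in the same libraries, so the rates cannot be compared. For each flagged set, the distant value is given with the next one, in CPM.

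Vehicle 16 was the high library for Tnnt1 (20.3 against 1.86), Vipr2 (11.3 against 2.01), Rorb (23.8 against 15), Rspo1 (3.44 against 1.02) and Tbr1 (51.2 against 35.7). Vehicle 29 was the high library for Fezf2 (28 against 11.3), Tshz2 (89.6 against 18.6) and Rxfp1 (21.5 against 5.28). Basal 27 was high for Tnnt1 (4.58 against 0.877), Vipr2 (1.98 against 0.717) and Otof (1.06 against 0.66). Cort 11 was high for Tnnt1 (3.23 against 1.48).

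In the remaining cases C118 33 was low for Zfhx3 (1.16 against 2.26) and Cort 17 low for Cux2 (17.3 against 19.8). C118 38 was high for Cux2 (19 against 16.7) and Syt6 (8.38 against 5.23), C108 39 for Syt6 (7.67 against 5.64) and Cort 36 for Tle4 (59 against 51.7).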

How the results depend on the processing

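The number of the 33 genes called changed with the settings given here, and the causes were not tested. Calls among all genes also changed under DESeq2 and with left-out libraries, so these counts are no result about the 33 genes in particular. With size factors of DESeq2 in edgeR, 2 were called for C118. With no filter, calls were 3 for Vehicle against Basal, 1 for RU486, 2 for C108, 1 for C118 and 1 in the joint test. With only the groups compared, calls were 1 for Vehicle against Basal, 0 for C108 and 8 in the joint test. DESeq2 called 9 for Vehicle against Basal, 5 for Cort, 8 for RU486, 13 for C108, 8 for C118 and 5 in the joint test. Without Vehicle 3 and 16, a pair picked with its high thalamus scores known, calls were 1 for Cort, 1 for RU486 and 0 for C108. Without Vehicle 16 and 29, a setting chosen after seeing the data, they were 2 for Vehicle against Basal and 0 for C108. Other settings chosen after seeing the data left out Cort 36, C108 39 and C118 38, with 0 for C108, or took 6 runs of sample numbers as a block, with 2 for Cort and 4 for RU486. The labels do not say that a number marks a batch.

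Leaving out each library in turn gave 1 to 12 calls for Vehicle against Basal, 0 to 5 for Cort, 0 to 12 for RU486, 0 to 20 for C108, 0 to 15 for C118 and 0 to 4 in the joint test. Among all genes, the same fits gave 346 to 940, 0 to 170, 0 to 207, 0 to 656, 0 to 214 and 261 to 807 calls, in that order. The highest counts of members came without Vehicle 23, and in the joint test without Cort 36. Without Vehicle 3, calls were 4 for Cort, 6 for RU486 and 5 for C118. For Vehicle against Basal, 1 call was left without Basal 1 or Basal 27 and 2 without Basal 14. The joint test kept 1 without Basal 1 or Basal 27, and C108 had 1 without C108 26.

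Medians of a set changed sign in 11 of 252 alternatives. For layers 5 to 6b, Vehicle against Basal was 0.0693 without Vehicle 3, 0.0622 without Vehicle 23 and 0.123 without Vehicle 3 and 16. Without Vehicle 16 and 29 that set was 0.0722 in Cort, 0.0427 in RU486, 0.169 in C108 and 0.0941 in C118. For the thalamus genes, Cort was 0.27 without Vehicle 16, and without Vehicle 3 and 16 the medians were 0.79 in Cort, 0.23 in RU486 and -0.44 for Vehicle against Basal. The choice of that pair fixes the direction of these changes. Leave-one-out medians ran from -0.75 to 0.27 for thalamus genes in Cort and from -0.18 to 0.07 for layers 5 to 6b in Vehicle against Basal. Libraries could not be paired by a shared sample number, because no number in the titles occurs in more than 1 group. Runs of sample numbers were taken as a block in the setting given above. Counting limits Gbx2, Nxph4 and Vipr2, with 3, 7 and 19 of 28 libraries at 10 counts or more.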
